A study of Homo sapiens with 4 samples.

Results

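The miR-191 and miR-425 hairpins share an intron of DALRD3, and their names were examined in miRNA sequencing (miR-seq) of U-251 cells, an established human glioblastoma line. Table names were matched to miR-191 or miR-425 with either arm or no arm given, which found 2 of 746 names, miR-191-5p and miR-425-5p. The pair was selected on its counts and on its listed and blank cells in these libraries, so levels and blanks are given as a description, without a test. The series holds 4 biological replicates of 1 group. All 4 are wild-type U251 cells grown in DMEM with serum and given the vehicle DMSO per the labels, while the paper calls the state basal and names no vehicle. No irradiated cells are among these libraries, and with 1 group no comparison between conditions was possible. The paper's methods give a miRNA library kit, whereas the protocol in the labels describes capture of polyadenylated mRNA. A single cell line gives no information on other glioma cells, and the labelled cell type could not be checked with protein-coding markers in a table of miRNAs.

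miRNAs are cut from hairpins in longer transcripts, first by Drosha in the nucleus and then by Dicer in the cytoplasm. One strand of the product, from the 5′ arm (5p) or the 3′ arm (3p) of the hairpin, is loaded onto an Argonaute protein such as AGO2 and guides it to mRNAs. Pairing rests mainly on the seed, bases 2 to 8 of the mature miRNA. Hairpins in 1 intron are usually made from the same primary transcript, and miR-191 and miR-425 are known as such a cluster, expressed in many tissues. miR-191-5p and miR-425-5p are also in use as reference miRNAs in RT-qPCR. DALRD3 encodes a partner of a tRNA methyltransferase.

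The RefSeq hairpins on GRCh38.p14, the same build as the hg38 of the deposited counts, are shown because both members come from them. MIR191 lies at chr3:49020618-49020709 and MIR425 at chr3:49020148-49020234, both on the minus strand. The letters run 5′ to 3′ along the RNA. In MIR191 the capitals mark the 5p arm and then the 3p arm, and in MIR425 they mark the 3p arm.
MIR191: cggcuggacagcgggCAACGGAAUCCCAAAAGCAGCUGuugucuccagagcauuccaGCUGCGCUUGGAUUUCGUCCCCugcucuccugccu
MIR425: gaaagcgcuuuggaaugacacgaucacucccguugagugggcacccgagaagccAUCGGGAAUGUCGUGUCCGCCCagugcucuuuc

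The mature sequence of miR-191-5p is shown because it is a member, and the 3p arms because the table has no name for them. The RefSeq data used here hold no mature sequence of miR-425-5p. It is therefore not shown, and its seed was not compared. The capitals mark the seed.
miR-191-5p: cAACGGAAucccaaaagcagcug
miR-191-3p: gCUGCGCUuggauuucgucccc
miR-425-3p: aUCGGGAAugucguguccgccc
Among 2370 mature names of the RefSeq table, 0 others had the seed of miR-191-5p, AACGGAA, and 0 others had that of miR-425-3p. No family member with the same seed could therefore be compared with miR-191-5p. The longest run of bases found in both hairpins was 6 bases, so reads of one are not easily taken for reads of the other. MIR191 is 92 bases long with a GC content of 59.8%, and MIR425 is 87 bases long with 57.5%. The median over 569 hairpins of listed names was 49.1%, below both. The predicted folding energy was -46.8 kcal/mol for MIR191 and -34.5 kcal/mol for MIR425. Per base this was -0.509 and -0.397 kcal/mol, against a median of -0.473. By this measure 36.4% of the 569 hairpins were more stable than MIR191 and 79.6% were more stable than MIR425.

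In the GENCODE annotation, MIR191 comes first in the direction of transcription, and 383 bases separate the hairpins. Both lie in intron 1 of 4 of the 15 annotated DALRD3 transcripts, and the other 11 transcripts do not reach them. RefSeq gives 2 starts for DALRD3. MIR191 lies 796 bases downstream of the upstream start and MIR425 lies 1271 bases downstream of it, while the second start lies beyond both hairpins. NDUFAF3, which encodes an assembly factor of mitochondrial complex I, runs on the opposite strand. Its intron 1 contains MIR191 in 1 of 6 annotated transcripts, and none of the 6 overlaps MIR425.

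**Figure D1:**
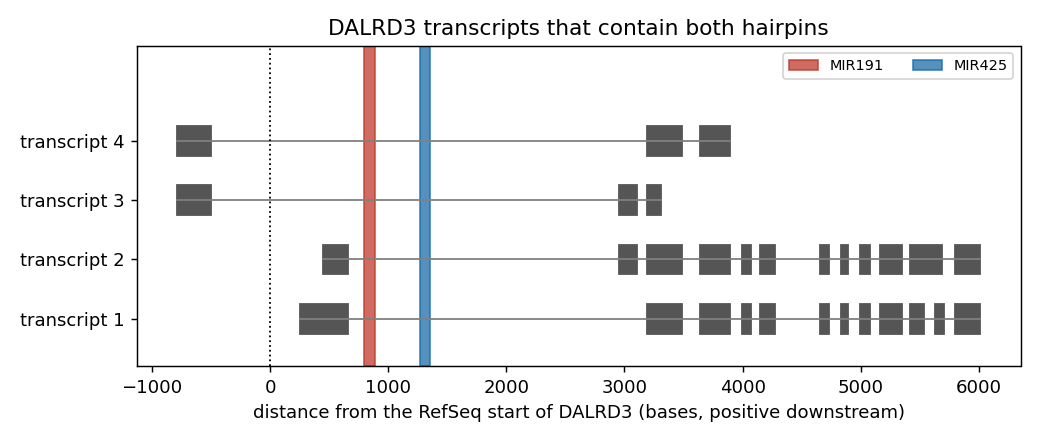
Map of the 4 DALRD3 transcripts that contain both hairpins, with exons as grey boxes, introns as thin lines and the hairpins as coloured bands. The horizontal axis gives the distance in bases from the upstream RefSeq start (dotted line), with MIR191 beginning at 796 and MIR425 at 1271, and both bands fall in the first intron of each transcript.

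Total counts per library lay between 12363104 and 13214969, and 413 to 456 of the 746 names had a value. A cell without a value was blank, no cell held 0, and a share below means the percentage of the miRNA counts of a library. A value in all 4 libraries was found for 309 names, which is 41.4% of all names and 49.8% of the 621 with a value anywhere. miR-191-5p was among the 309. A value in 1 library was all there was for 156 of the 621 names, or 25.1%, and miR-425-5p was among these.

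For replicates 1 to 4 the table gave 94258, 110417, 92546 and 102186 counts of miR-191-5p. These were 0.751% (95% Wilson interval 0.747% to 0.756%), 0.836% (0.831% to 0.840%), 0.749% (0.744% to 0.753%) and 0.801% (0.797% to 0.806%) of the counts. Replicates 1 and 3 were low and nearly level, and replicates 2 and 4 were higher. The intervals cover counting error only, and those of the lower and the higher libraries did not overlap. The mean share was 0.784% ± 0.0419 (SD, n = 4), and the highest library exceeded the lowest 1.12-fold. As a description, the gap at the end of its range divided by the range, Dixon's ratio, was 0.392, under the critical value for 4 libraries. Of the 280 miRNAs that reached 10 counts in each library, 31, or 11.1%, passed that value.

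By summed count miR-191-5p was at rank 22 with 399407 counts, and in single libraries it was at ranks 23, 22, 24 and 18. Next above it were miR-103a-2-5p and miR-103a-1-5p, with mean shares of 0.821% ± 0.0822 and 0.816% ± 0.0816 (SD, n = 4). Each of them exceeded miR-191-5p in 3 of 4 libraries, with replicate 4 as the exception. Their counts stood at a ratio of 0.994 to 0.995 in every library, so they are nearly copies of one value. Their 5p sequences differ at 1 of 23 positions, and miR-103a-3p, which comes from both hairpins, is not a name of the table. The cause of the near-equal counts was not tested. The mean log2 ratio of miR-191-5p to miR-103a-2-5p was -0.06 with an SD of 0.12, so they did not differ beyond their spread. Next below was miR-24-2-5p at 0.765% ± 0.0163, which miR-191-5p exceeded in 2 of 4 libraries. On the log2 scale their ratio averaged 0.04 (SD 0.08). miR-27b-5p followed at 0.663% ± 0.0711. It was below miR-191-5p in 3 of 4 libraries, and the mean log2 ratio of 0.25 was larger than its SD of 0.18. The place of miR-191-5p among the names from rank 20 to rank 23 was therefore not resolved by 4 libraries.

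**Figure D2:**
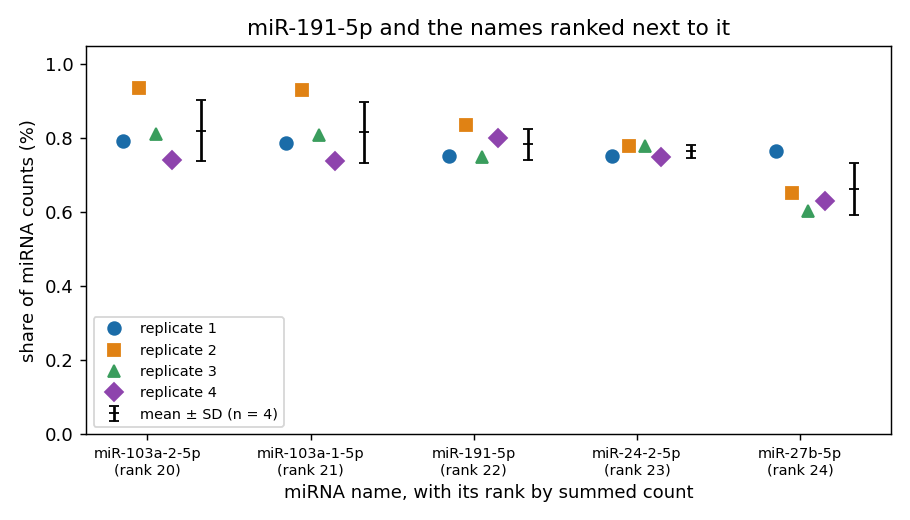
Share of the miRNA counts (vertical axis, %) of miR-191-5p and of the 2 names ranked above and below it by summed count, with 1 point per replicate and the mean ± SD beside them. The 4 points of miR-191-5p lie between 0.749% and 0.836% and overlap those of miR-103a-2-5p, miR-103a-1-5p and miR-24-2-5p. The replicate 1 point of miR-27b-5p also lies within that range.

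The spread of miR-191-5p between libraries was small. Its coefficient of variation (the SD divided by the mean) was 5.35%, the sixth lowest of 280 miRNAs, whose median was 20.1% with quartiles of 13.5% and 31.2%. Among the 54 miRNAs with a mean share of at least 0.1% it was the third lowest, against a median of 14.3%. The position depended on scaling and on single libraries. With TMM factors the coefficient was 7.95% at position 25, and with DESeq2 size factors it was 7.58% at position 27. With upper-quartile factors, the normalization named in the paper's methods, it was 13.8% at position 58 when the factors came from all names with a value. Upper-quartile factors from the 280 miRNAs alone gave 7.69% at position 23. Without replicate 1, without replicate 3 and without replicate 4 the position was 33 of 297, 14 of 289 and 27 of 298. In each of these fits the coefficient was under the median of the miRNAs compared. The tagwise biological coefficient of variation of edgeR, which is drawn towards that of other miRNAs, was 16.7% for miR-191-5p against a median of 23.3%.

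miRNAs commonly used as RT-qPCR references were set beside the members. The list held 12 miRNAs, of which 11 had a name in the table, with 13 names in all. They were matched by miRNA number, and the table names the 5p arm, while for several, such as miR-103a and miR-24, the arm in common use as a reference is 3p. Which arm was counted was not tested. A coefficient of variation could be computed for 11 of these names, with both miR-103a names among them. It lay between 2.14% for miR-24-2-5p and 32.3% for miR-26a-5p, with a median of 10.0%, and 8 of 11 were below the median of the 280 miRNAs. miR-191-5p was the second lowest. miR-93-5p had 9.87%, miR-103a-1-5p 9.99%, miR-103a-2-5p 10.0%, miR-320a-5p 8.48%, miR-30c-5p 12.3% and miR-423-5p 18.2%. miR-16-5p and Let-7i-5p were above the median of all, with 25.6% and 26.7%. miR-425-5p and miR-24-1-5p gave no coefficient because of blanks.

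**Figure D3:**
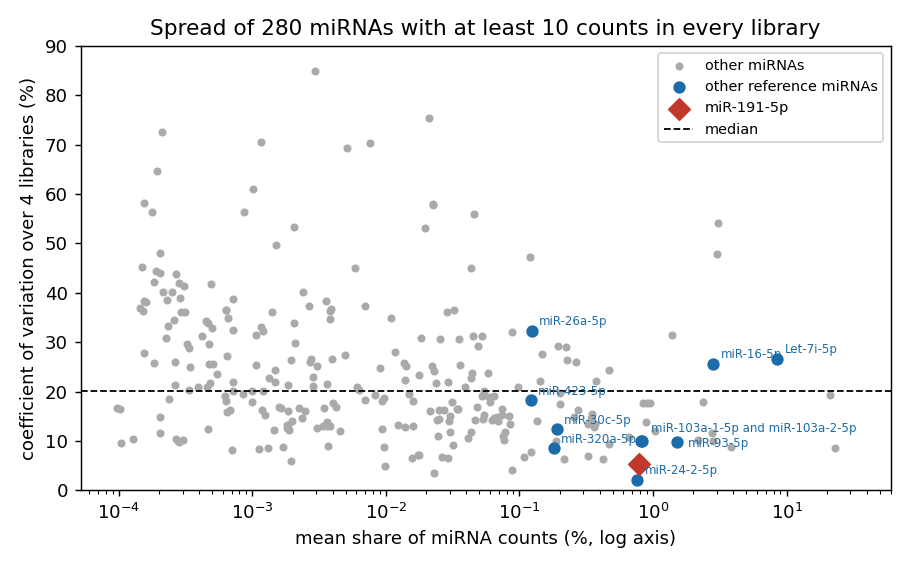
Coefficient of variation over 4 libraries (vertical axis, %) against the mean share (horizontal log axis, %) for the 280 miRNAs that reached 10 counts in each library. miR-191-5p (red diamond) lies at 5.35%, below the dashed median of 20.1%, and 8 of the 11 reference names, miR-191-5p included, lie below that line.

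The miRNAs with a pattern most like that of miR-191-5p were taken as those with the smallest SD of the log2 ratio to it over 4 libraries. Among 279 miRNAs the median of this SD was 0.30. It was 0.02 for miR-181b-5p, 0.06 for miR-597-5p and 0.08 for miR-24-2-5p. miR-181b-5p was listed at 25664, 30606.5, 24941.5 and 27645.5 counts in replicates 1 to 4, so that miR-191-5p was 3.61-fold to 3.71-fold higher in every library. miR-597-5p was listed at 79 to 101 counts, too few for a close ratio. A ratio within a library does not depend on its depth. The named miRNAs were picked as the most alike of 279, and no p is given for likeness.

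miR-425-5p was listed at 4168 counts in replicate 4 and was blank in replicates 1, 2 and 3. In replicate 4 this was 0.0327% of the counts (95% Wilson interval 0.0317% to 0.0337%) and rank 91 of the 413 names listed there. miR-191-5p had 24.5 times as many counts in that library, a log2 ratio of 4.62. This ratio rests on 1 library and has no replicate error. The relation between the members across libraries could not be measured. By summed count miR-425-5p was at rank 147, between miR-504-5p with 4579 and miR-1304-5p with 4217 counts above it and miR-374a-5p with 3830 and miR-421 with 3515 below. These 4 neighbours were listed in every library, at 540 to 1948 counts each, where miR-425-5p had its whole sum in replicate 4.

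A level of 4168 counts is not one at which most names went unlisted. The 5 names just above miR-425-5p in replicate 4 and the 5 just below it had 3906 to 4888 counts there. All 10 had a value in every library, from 2360 to 10519 counts in replicates 1 to 3. Among them were miR-34a-5p, a known p53 target, with 2360, 2918, 2487 and 3972 counts in replicates 1 to 4, and miR-532-5p with 3144, 4119, 4136 and 3906. Of 141 names with at least 1000 counts in replicate 4, 138 had a value in every library and 2, miR-24-1-5p and miR-100-5p, were blank in 1 other library. miR-425-5p was the remaining name and the one with no value elsewhere. Of the 25 names listed only in replicate 4 it had the highest count. The next, miR-18a-5p, had 666, and the median was 8.

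**Figure D4:**
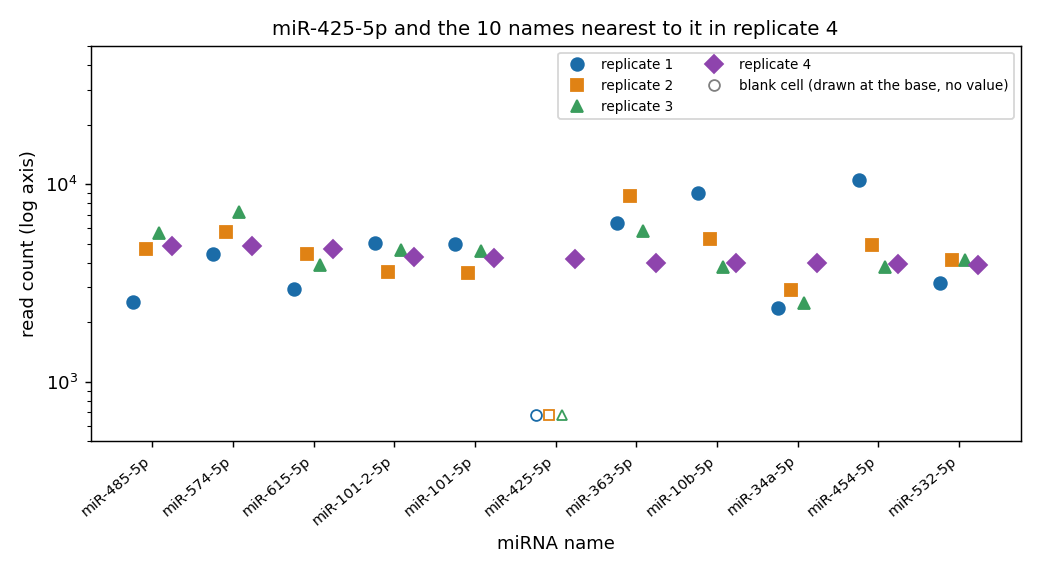
Read counts (vertical log axis) of miR-425-5p and of the 10 names nearest to it by count in replicate 4, with 1 symbol per replicate. Open symbols at the base are blank cells and have no value, and miR-425-5p is the name with blanks, in replicates 1, 2 and 3.

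Blanks at high counts were not particular to miR-425-5p. Of 156 names with a count of at least 1000 in some library, 12, or 7.69%, had a blank. The share of names with a blank was 99.4% where the highest count was under 10 and 59.4% where it was from 10 to under 100. It was 16.7% from 100 to under 1000, 8.43% from 1000 to under 10000, 6.25% from 10000 to under 100000 and 8% above that. Above 1000 counts the share thus no longer fell steadily with the count. Of the 12 names, 6 had a value in 1 library. They were miR-182-5p with 214667 counts and miR-132-5p with 1797 in replicate 1, miR-23a-5p with 96580 and miR-324-5p with 2984 in replicate 2, miR-134-5p with 18453 in replicate 3, and miR-425-5p in replicate 4. Each library thus held at least 1 name at 1000 counts or more that the other libraries left blank.

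**Figure D5:**
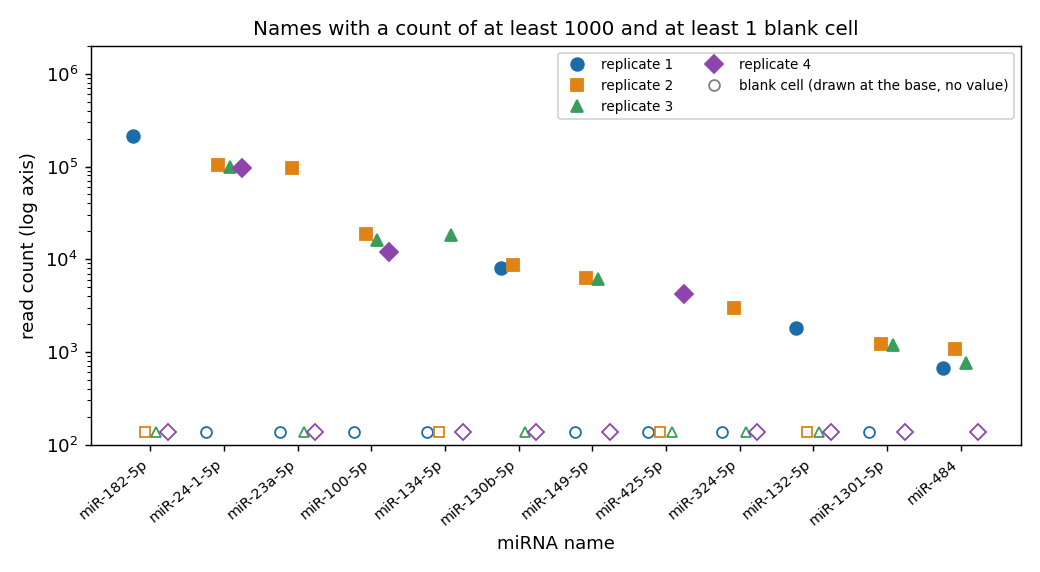
Read counts (vertical log axis) of the 12 names with at least 1000 counts in some library and at least 1 blank, ordered by their highest count, with 1 symbol per replicate. Open symbols at the base are blank cells and have no value, and miR-425-5p is 1 of 6 names with a single filled symbol.

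A partner that was listed throughout was also found for other such names. Only names matched to 1 hairpin gene were paired. Hairpin genes within 10 kb of each other on the same strand gave 286 pairs of names, which overlap because large clusters give many pairs. Both names had a value in every library in 174 pairs. In 60 pairs, the pair of miR-191-5p and miR-425-5p among them, one name had a value in every library and the other in a single library. In 16 of these the name listed once had at least 1000 counts, and these pairs held 5 different such names. miR-23a-5p, listed at 96580 counts in replicate 2, lies 227 bases from miR-24-2-5p, which had 94306, 102949, 96244 and 95514 counts in replicates 1 to 4. miR-182-5p, listed at 214667 counts in replicate 1, lies 4412 bases from miR-183-5p, which had 50026, 51418, 45818 and 37733. miR-134-5p, listed at 18453 counts in replicate 3, lies 305 bases from miR-382-5p, which had 27068, 38474, 39956 and 34859. Both names were listed in replicate 4 for 197 pairs. The median difference between the partners there was 2.64 on the log2 scale, and 40 pairs differed by more than the 4.62 of miR-191-5p and miR-425-5p. In 129 of the 197 pairs at least 1 name reached 1000 counts in some library. Their median difference was 3.62, and 37 of them differed by more than 4.62. In the 162 pairs with at least 10 counts for both names in every library, the SD of the log2 ratio had a median of 0.32. No such SD could be had for miR-191-5p and miR-425-5p.

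The miR-24 hairpins bear on how a blank and an arm name are read, and were chosen after their values were seen. Their mature sequences are shown because the 2 names differ in the 5p arm while the 3p arm is the same.
miR-24-1-5p: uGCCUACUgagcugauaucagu
miR-24-2-5p: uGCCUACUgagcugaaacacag
miR-24-3p: uGGCUCAGuucagcaggaacag
The capitals mark the seed. The 5p sequences differ at 6 of 22 positions, and miR-24-3p, which comes from both hairpins, is not a name of the table. miR-24-1-5p had 104745, 98131 and 97326 counts in replicates 2 to 4, each 1.02 times the count of miR-24-2-5p. In replicate 1 miR-24-1-5p was blank beside 94306 counts of miR-24-2-5p. A blank was therefore not read here as absence of a miRNA, in miR-425-5p either. Sums and totals had to add a blank as 0, so the rank of miR-425-5p by summed count rests on its blanks being added as 0. Its rank within replicate 4 does not depend on its blanks. The ranks of miR-191-5p rest in the same way on blanks of other names. miR-182-5p exceeded it in replicate 1, with 214667 against 94258 counts, and was blank in replicates 2 to 4.

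Neither miR-191-3p nor miR-425-3p was a name of the table. The same held for most 3p arms, since of 807 hairpins with both arms in RefSeq, 497 had a 5p name in the table and 13 a 3p name. Whether the counts under miR-191-5p and miR-425-5p include reads of the 3p arm was not tested.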

How the data were processed

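Counts of miRNAs in 4 U-251 libraries were analysed. The authors trimmed adaptors with Trimmomatic, removed longer reads, aligned with Bowtie to hg38 and counted with miRDeep2, and they deposited unnormalized values, treated here as estimated counts because 40 names have values that are not whole. The submitters' processing notes also name bcl2fastq 2.20 and Picard. The miRNA annotation release and the use of molecular identifiers are not given in the sources used here. A longer-read filter and one name per hairpin arm can shift which miRNAs are listed.

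The members and lists were chosen with earlier results of these data known. Named miRNAs are the members, the 2 names ranked above and below each, the 3 most alike, the reference miRNAs, same-seed names and neighbouring hairpins, of which only those beside abundant names listed once are named. Names beside miR-425-5p in replicate 4, abundant names with blanks and the miR-24 hairpins were chosen after their values were seen.

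Shares used the total count per library, 12363104 to 13214969. A blank entered the totals as 0 counts, and a count of 0 allows up to 3 counts, or 2.43e-05% of the smallest library. Wilson intervals are at 95%. Scripts used Python 3.11.15, pandas 2.3.3, numpy 2.4.6, scipy 1.17.1, matplotlib 3.10.9, ViennaRNA 2.7.2, and edgeR 4.0.16 on rounded counts, with DESeq2 1.42.0 as an alternative, in R 4.3.3. Hairpin genes came from GENCODE release 44 and matched 731 of 746 names, and sequences came from RefSeq. GC content was available for 240 of 280 miRNAs. The coefficient of variation, the likeness of patterns and the edgeR dispersion were tested on simulated data, and the other steps were not. No test between conditions was run.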

Additional observations from a re-analysis of the deposited data

Results flagged for a closer look

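miR-425-5p met the criterion for a library standing apart. With blanks taken as 0 counts, the gap between replicate 4, at 0.0327% of the counts, and the others equals the whole range, so Dixon's ratio is 1. The blanks fix this ratio, and about 5% of groups pass the critical value by chance. The cause of the blanks was not tested.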

How the results depend on the processing

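The share of miR-191-5p, 0.784%, moved by less than its SD in 11 of 12 alternatives and became 2.11% with Let-7 and miR-98 left out of the denominator, which removes most counts by construction. The share of miR-425-5p in replicate 4, 0.0327%, was 0.0352% with TMM, 0.0380% with upper-quartile factors, 0.0351% with DESeq2 size factors and 0.0970% without Let-7 and miR-98. Among alternatives added after seeing the data, TMM and upper-quartile factors over the 280 miRNAs both gave 0.0348%, and a mean over 4 libraries with blanks as 0 gave 0.00817%. The coefficient of variation of miR-191-5p, 5.35%, was 13.8% with upper-quartile factors from all names with a value and 7.69% with those from the 280 miRNAs. It was 10.2% without Let-7 and miR-98, and 3.88% to 6.34% with one replicate left out. Its alternatives were all chosen after seeing the data. The tagwise coefficient of edgeR for miR-191-5p, 16.7%, was 54.3% without a filter on low counts. In that fit the median over all miRNAs rose from 23.3% to 136%, and miR-191-5p was at position 14 of 621. With one replicate left out its coefficient was 11.4% to 21.7%. The median SD over neighbouring hairpins, 0.32, was 0.19 to 0.36 with one replicate left out, the lowest without replicate 1, in fits also added after seeing the data. The cause was not tested for these changes. The rank of miR-191-5p, the number of names listed in every library and Dixon's ratio of miR-191-5p kept their values within 1.5 times or their side of the critical value. The rank of miR-425-5p by summed count or mean share was 137 to 147 in its alternatives, but each of them added its blanks as 0. How that rank depends on the blanks was therefore not tested. Within replicate 4, where miR-425-5p is listed, it was at rank 91.

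The SD of the ratio of the members, their ratio after removing a GC trend, and values of miR-425-5p without replicate 4 could not be computed, since its count is listed in 1 library. No paired analysis was possible because every library belongs to the same group. Depth limits names near 3 counts, and the 4 libraries limit every order in rank.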

Other observations

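miRNAs typical of other cell types were read in the same libraries. Of 13 markers, 9 had a value in at least 1 library. Markers were matched by miRNA number with any arm listed. Most 3p arms have no name here, and miR-223 and miR-206 have no name at all, so a low sum need not mean absence of a cell type. The erythroid markers (miR-451a, miR-144 and miR-486) summed to 0.0121% to 0.0217% of the counts per library, nearly all from miR-486-5p, while miR-451a had no value. Those of white blood cells (miR-142, miR-150 and miR-223) summed to 14 to 37 counts, with the highest sum in replicate 4. Those of liver and muscle summed to at most 0.00358% and 0.000391%. Those of neurons summed to 0.172% to 0.261%, almost entirely from miR-128-1-5p, while miR-124-5p had no value. U-251 cells may express some of these themselves, and their part in the values of miR-191-5p and miR-425-5p was not tested.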
